A study of Mus musculus with 12 samples.

Results

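Genes that mark macrophages and dendritic cells, 10 of the 53715 gene identifiers in the count table, were followed through RNA-seq libraries of mouse ileal and colonic mucosa. They are Cx3cr1, Csf1r, Adgre1, C1qa, C1qb, C1qc, Mrc1, Cd163, Lyz2 and Itgax, taken by symbol from the GENCODE M21 annotation, and all 10 had enough counts to be tested. All are protein-coding. Besides the C1q and lysozyme genes, whose positions are given with their sequences, Cx3cr1 lies at chr9:119901616-120069879, Adgre1 at chr17:57358691-57483527, Mrc1 at chr2:14229392-14332057, Cd163 at chr6:124304656-124330527 and Itgax at chr7:128129547-128150657 (GRCm38), and Csf1r is on chromosome 18. The study asked how loss of the manganese transporter Slc39a8 (ZIP8) from the intestinal epithelium changes the mucosa. There were 12 libraries, with 3 mice in each of 4 groups: ileum of control mice, ileum of Slc39a8-IEC KO mice, colon of control mice and colon of Slc39a8-IEC KO mice.

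All groups were of the C57BL/6J strain. Per the paper the mice were 8-week-old males, and none of the RNA-seq groups is described as given a colitis-inducing agent. Control mice are labelled as Slc39a8-fl/fl, although the paper's methods describe its controls more broadly as floxed, wild-type and Vil-Cre mice. Slc39a8-IEC KO mice are labelled as Slc39a8-fl/fl with Villin-Cre, a Cre recombinase driven by the Villin promoter in intestinal epithelial cells. The promoter is not active in macrophages or dendritic cells, which are therefore not the cells in which the gene was deleted. Slc39a8 itself was at 5.22 to 8.39 CPM (counts for each 1000000 of the library) in ileal controls and 2.62 to 4.35 CPM in ileal KO libraries, and at 20.1 to 20.8 against 7.35 to 11.5 CPM in colon, without overlap in either tissue.

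Resident macrophages lie under the intestinal epithelium, take up microbes and dying cells, and are renewed in large part from blood monocytes. Their survival depends on signalling through the receptor encoded by Csf1r, and maturing gut macrophages gain Cx3cr1, the C1q genes, Mrc1 and Cd163. Classical dendritic cells take up antigen and carry it to lymph nodes, and most of them express Itgax (CD11c), a gene that many gut macrophages, some T cells and other leukocytes also express. Because whole mucosa was sequenced, fewer cells of a type and less RNA per cell cannot be told apart.

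Libraries held 16749138 to 27903083 expected counts. Levels below are CPM on library sizes scaled by the trimmed mean of M-values (TMM). All tests were edgeR's quasi-likelihood test with Benjamini-Hochberg adjustment over 16558 genes, and a gene was called at an adjusted p under 0.1. In the ileum, control replicate 3 and KO replicate 1 stood apart from the other 4 libraries: the smooth muscle genes Acta2, Myh11 and Des reached 2.98 to 8.29 CPM there, compared with 241 to 698 CPM elsewhere in the ileum. The tests between tissues are therefore given with and without these 2.

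Further genes of the same cells were read as a check of the label. Of 18 further macrophage genes, 16 were tested, among them Tyrobp, Fcer1g and Aif1, which encode signalling adaptors and a cytoskeletal protein of myeloid cells. Tyrobp was at 3.40 to 13.8 CPM over the 12 libraries. Defining markers of classical dendritic cells had few counts. Zbtb46, Xcr1 and Clec9a each reached at most 1.73 CPM in any library, and Flt3 at most 0.850 CPM. Whether reads of Itgax came from dendritic cells, macrophages or T cells cannot be told apart in these libraries.

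Levels per kilobase of exon put Lyz2 first in every group. Lyz2 encodes the lysozyme of macrophages and neutrophils, and its level was 56.2 ± 26.8 CPM per kilobase in control ileum (mean ± SD, n = 3) and 51.8 ± 3.34 in control colon. The C1q chains came next in the order C1qa, C1qb, C1qc, at 25.0, 20.1 and 9.27 CPM per kilobase in control ileum and 14.8, 11.8 and 5.72 in control colon. In control ileum these neighbours overlapped, as did Lyz2 and C1qa, whereas in control colon each step from Lyz2 to C1qa, C1qb, C1qc and Csf1r was without overlap. Csf1r followed at 2.68 ± 0.911 CPM per kilobase in control ileum and 1.61 ± 0.101 in control colon, then Mrc1 and Adgre1, which overlapped in both. By mean, the last places differed between tissues. Cd163 was lowest in ileum, at 0.204 ± 0.176 CPM per kilobase in controls, but it overlapped with Cx3cr1 just above it. In control colon it ranked above Itgax and Cx3cr1, which were at 0.381 ± 0.0610 and 0.355 ± 0.112. There Cd163 overlapped with Itgax, and Itgax with Cx3cr1. In KO mice the last place was held by Cd163 in ileum and by Itgax in colon, each overlapping with Cx3cr1 just above it.

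**Figure D1:**
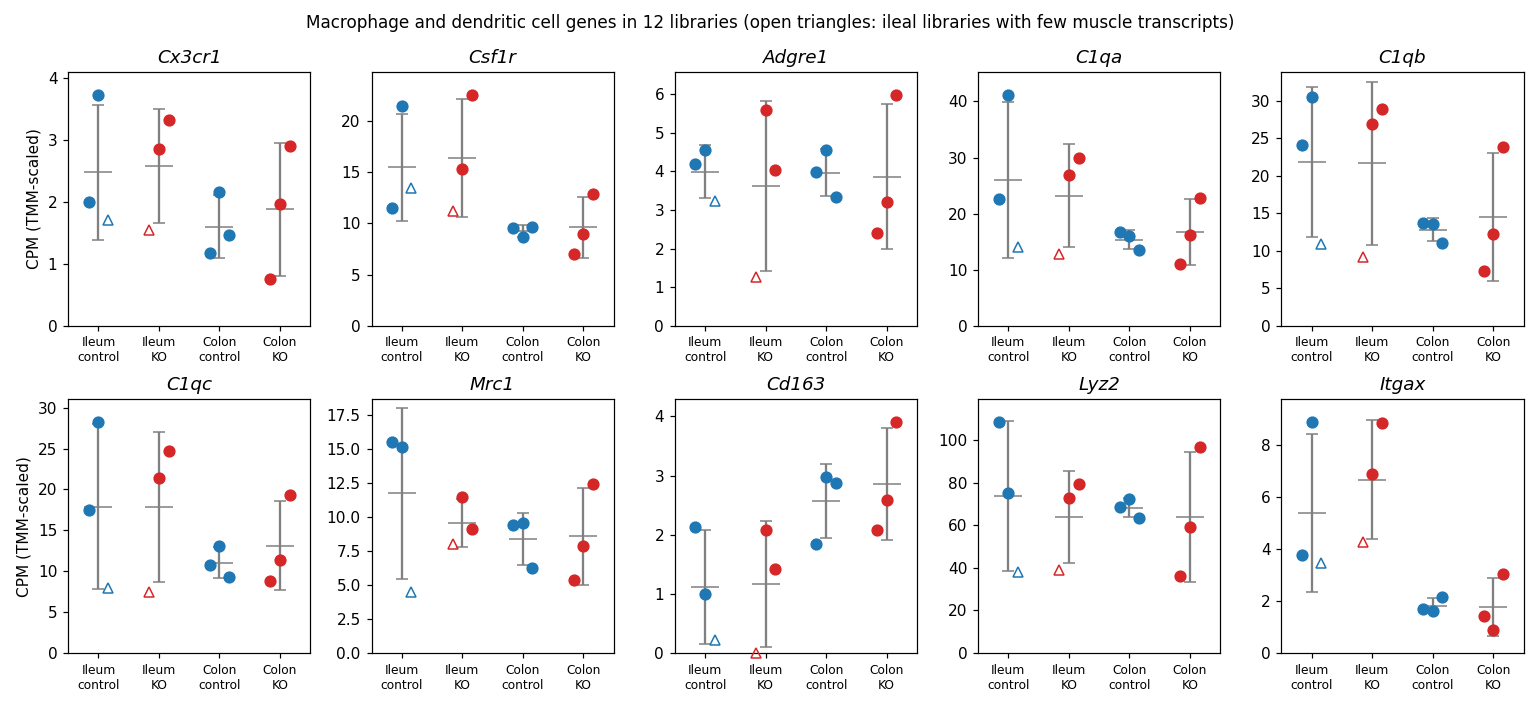
Each panel shows 1 gene (control blue, KO red) in CPM (TMM-scaled, linear axis from 0) for 3 libraries per group, with points for libraries and bars for the mean ± SD. Open triangles are the 2 ileal libraries with few muscle transcripts. Itgax is lower in every colonic library (at most 3.03 CPM) than in every ileal library (at least 3.48 CPM).

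The genes of C1q illustrate how closely some of these levels moved together. C1q is the recognition subunit of the classical complement pathway, built from A, B and C chains, and in most tissues macrophages are its main source. The 3 genes lie side by side on the minus strand of mouse chromosome 4 (GRCm38): C1qb at chr4:136880129-136886187, C1qc at chr4:136889804-136893065 and C1qa at chr4:136895917-136898803, separated by gaps of 3616 and 2851 bases. The 300-base promoter windows of RefSeq (250 bases before the start and 50 after) held entries for 7 of the 10 genes, not for C1qa, Csf1r or Adgre1. The core of the binding site of PU.1, the transcription factor that directs macrophage development, was searched as AGGAAGT or its reverse complement ACTTCCT. It was found in 4 of these 7 windows, those of C1qb, C1qc, Lyz2 and Mrc1, and in 9.35% of all 32851 windows. With 1 more base (GAGGAAGT or ACTTCCTC, which contain the shorter motif) only the C1qc window matched, against 3.20% of all windows. The stretches of C1qb (chr4:136886241-136886340, minus strand) and C1qc (chr4:136893066-136893164, minus strand), the C1q genes with a match, are shown. They run 5′ to 3′ in the direction of the gene, with the motif in capitals. Whether the motif bears on the levels was not tested.
C1qb: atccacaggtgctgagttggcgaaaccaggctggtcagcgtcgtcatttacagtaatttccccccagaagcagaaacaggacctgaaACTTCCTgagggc
C1qc: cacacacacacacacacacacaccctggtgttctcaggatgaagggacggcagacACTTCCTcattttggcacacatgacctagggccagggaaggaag
A match to these letters is a description of the sequence and does not show that PU.1 binds there. Spi1, which encodes PU.1, was at 0.612 to 4.12 CPM over the 12 libraries.

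C1qa was at 22.7, 41.2 and 14.1 CPM in the control ileal libraries (replicates 1 to 3) and at 12.8, 26.8 and 30.0 CPM in the ileal KO libraries. In colon it was at 16.6, 15.98 and 13.5 CPM in controls and 11.1, 16.3 and 22.7 CPM in KO libraries. The low ileal values were those of the 2 libraries with few muscle transcripts, and all 4 groups overlapped. C1qb was at 24.2, 30.5 and 10.96 CPM in control ileum, 9.18, 26.9 and 28.9 CPM in KO ileum, 13.8, 13.6 and 11.1 CPM in control colon and 7.26, 12.3 and 23.9 CPM in KO colon. C1qc was at 17.5, 28.2 and 7.99 CPM in control ileum, 7.45, 21.5 and 24.7 CPM in KO ileum, 10.8, 13.0 and 9.27 CPM in control colon and 8.76, 11.4 and 19.3 CPM in KO colon. The 3 chains put the 6 ileal libraries in the same order, and likewise the 3 KO colonic libraries. Within a library the ratio of CPM was 0.939 to 1.53 for C1qa over C1qb and 0.725 to 1.21 for C1qc over C1qb.

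The patterns of other genes were set against the mean pattern of the 3 C1q genes over the 12 libraries, as the root mean square difference of centred log2 CPM. The C1q genes themselves lay 0.10 to 0.12 from their mean, a distance made smaller because each is part of that mean. Genes outside the list that lay near to it were Sept4 (0.22), Ms4a4b (0.24), 9330175E14Rik (0.24) and the MHC class I gene H2-Q4 (0.24). Of the other members, Cx3cr1 was the most similar (0.30, rank 28), and Mrc1, Csf1r and Lyz2 came at ranks 91, 95 and 129. Adgre1 was at rank 346. Itgax (0.71, rank 6900) and Cd163 (1.42, rank 15217) had patterns unlike that of C1q.

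Csf1r and Cx3cr1 encode receptors of known ligands. Csf1r is the receptor for Csf1 and Il34, the factors that keep macrophages alive, and it was at 11.5, 21.4 and 13.5 CPM in control ileum and 11.2, 15.4 and 22.5 CPM in KO ileum. In colon it was at 9.57, 8.64 and 9.70 CPM in controls and 7.02, 9.01 and 12.8 CPM in KO libraries. Each control colonic library was below each control ileal library, a position that 20.4% of all genes held, whereas the KO groups overlapped through 1 colonic library. Of its ligands, Csf1 was at 5.20 to 7.61 CPM in 4 ileal libraries, at 0.850 and 1.13 CPM in the 2 with few muscle transcripts and at 3.38 to 7.80 CPM in colon. Il34 was at 0.775 to 3.67 CPM in ileum and 0.768 to 1.58 CPM in colon.

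Cx3cr1 is the receptor for fractalkine, the product of Cx3cl1, and marks resident gut macrophages that reach between epithelial cells. Its values rested on 16 to 73 counts per library. Its levels were 1.997, 3.72 and 1.70 CPM in control ileum, 1.55, 2.85 and 3.32 CPM in KO ileum, 1.18, 2.16 and 1.46 CPM in control colon and 0.754, 1.97 and 2.91 CPM in KO colon. All groups overlapped. Cx3cl1, its ligand gene, was at 58.3 to 97.5 CPM in ileum and 48.0 to 66.2 CPM in colon.

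Adgre1 encodes F4/80, an adhesion receptor used to identify mouse macrophages. It was at 4.19, 4.56 and 3.23 CPM in control ileum, 1.25, 5.59 and 4.03 CPM in KO ileum, 3.99, 4.56 and 3.34 CPM in control colon and 2.40, 3.21 and 5.98 CPM in KO colon. The group means hardly differed, and KO replicate 1 of the ileum held the lowest value. Mrc1 encodes the mannose receptor CD206, which takes up glycoproteins and is used as a marker of tissue-repair macrophages. It was at 15.5, 15.2 and 4.50 CPM in control ileum, 7.99, 11.5 and 9.14 CPM in KO ileum, 9.42, 9.55 and 6.21 CPM in control colon and 5.37, 7.87 and 12.5 CPM in KO colon, with overlap throughout.

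Cd163, the scavenger receptor for haemoglobin bound to haptoglobin, was the member whose ileal values varied most relative to their mean. It was at 2.13, 0.9999 and 0.212 CPM in control ileum and 0, 2.07 and 1.42 CPM in KO ileum. The value of 0 belongs to KO replicate 1, in which a count of 0 allows up to 0.179 CPM (3 counts, for counting error only), and the value of 0.212 CPM, in control replicate 3, rests on 5 counts. In colon it was at 1.84, 2.97 and 2.87 CPM in controls and 2.07, 2.59 and 3.90 CPM in KO libraries. The KO groups were separated by a margin smaller than 1 count (2.071 against 2.073 CPM), and the control groups overlapped. Of all genes 25.5% were higher in every colonic KO than in every ileal KO library, and 24.9% were lower.

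Itgax, which encodes integrin alpha X, was at 3.79, 8.89 and 3.48 CPM in control ileum and 4.29, 6.88 and 8.86 CPM in KO ileum. It was at 1.69, 1.63 and 2.17 CPM in control colon and 1.41, 0.881 and 3.03 CPM in KO colon. Every ileal library was above every colonic library. Relative to Csf1r in the same library, Itgax was at 0.259 to 0.448 in ileum and 0.0977 to 0.236 in colon, again without overlap.

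The lysozyme gene Lyz2 has a close copy, so its levels carry a further uncertainty. Lyz2 (chr10:117277331-117282321, minus strand, GRCm38) lies 5475 bases from Lyz1 (chr10:117287797-117292868), which encodes the lysozyme of Paneth cells, the antimicrobial cells of small intestinal crypts. Their coding sequences of 444 bases differ at 22 positions, an identity of 95.05%. Coding bases 61 to 120, in exon 1 (chr10:117292719-117292778 for Lyz1 and chr10:117282123-117282182 for Lyz2), hold 9 of these differences, shown in capitals because reads over them can tell the genes apart.
Lyz1: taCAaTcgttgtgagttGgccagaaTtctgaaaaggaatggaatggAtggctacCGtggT
Lyz2: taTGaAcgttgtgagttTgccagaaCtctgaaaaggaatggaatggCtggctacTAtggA
Of the 1167 windows of 150 bases in the Lyz2 transcript, 0 were also found in the Lyz1 transcript, while 24 of 1217 windows of 100 bases and 74 of 1242 windows of 75 bases were. Their promoters are alike as well, and 100 bases of each (chr10:117282323-117282422 for Lyz2 and chr10:117292919-117293018 for Lyz1, minus strand) are shown with the PU.1-type motif that both contain in capitals.
Lyz2: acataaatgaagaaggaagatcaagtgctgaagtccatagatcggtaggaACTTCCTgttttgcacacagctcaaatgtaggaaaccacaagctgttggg
Lyz1: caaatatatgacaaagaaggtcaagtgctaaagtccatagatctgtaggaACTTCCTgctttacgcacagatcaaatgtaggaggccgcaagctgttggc

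Lyz2 was at 108, 75.4 and 38.0 CPM in control ileum, 39.1, 72.9 and 79.5 CPM in KO ileum, 68.7, 72.3 and 63.6 CPM in control colon and 36.1, 59.2 and 96.5 CPM in KO colon. Lyz1 was at 1839 to 6360 CPM in ileum and at 2.20 to 4.51 CPM in colon. In the ileum Lyz2 was lowest in the 2 libraries in which Lyz1 was highest (6360 and 4742 CPM, against 1839 to 2459 CPM in the others). Colonic libraries had almost no Lyz1 and yet held Lyz2 at levels that overlapped with ileum. How many ileal reads of Lyz1 were counted as Lyz2 was not tested.

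Colon was compared with ileum within each genotype. In control mice 2 of 10 members were lower in colon and 0 were higher. Over all genes 35.9% were called in this comparison, 19.6% as lower in colon, so 2 of 10 members lay close to the share of all genes that were lower in colon. Itgax fell from 5.39 ± 3.04 CPM (mean ± SD, n = 3) to 1.83 ± 0.293 CPM, a log2 fold change of −1.55 (SE 0.49, adjusted p = 0.0357). Csf1r fell from 15.5 ± 5.26 to 9.30 ± 0.581 CPM, a log2 fold change of −0.73 (SE 0.31, adjusted p = 0.0999). The C1q genes had log2 fold changes of −0.69 to −0.77 that missed the threshold (adjusted p from 0.190 to 0.321). Cx3cr1 (−0.62), Mrc1 (−0.48), Lyz2 (−0.12) and Adgre1 (−0.01) were not called, nor was Cd163, whose log2 fold change was 1.24 with a standard error of 0.93.

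In Slc39a8-IEC KO mice the same 2 of 10 members were called as lower in colon, where 37.1% of all genes were called and 20% were lower. Itgax fell from 6.68 ± 2.29 to 1.77 ± 1.12 CPM, a log2 fold change of −1.90 (SE 0.49, adjusted p = 0.0142). Csf1r fell from 16.4 ± 5.74 to 9.62 ± 2.95 CPM, a log2 fold change of −0.77 (SE 0.31, adjusted p = 0.0843). The median log2 fold change over the 10 members was −0.66 in control mice and −0.45 in KO mice, beside 0.02 and 0.01 over all genes. Itgax was the only member without overlap between all 6 ileal and all 6 colonic libraries. Of all genes 14.7% were lower in every colonic than in every ileal library.

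**Figure D2:**
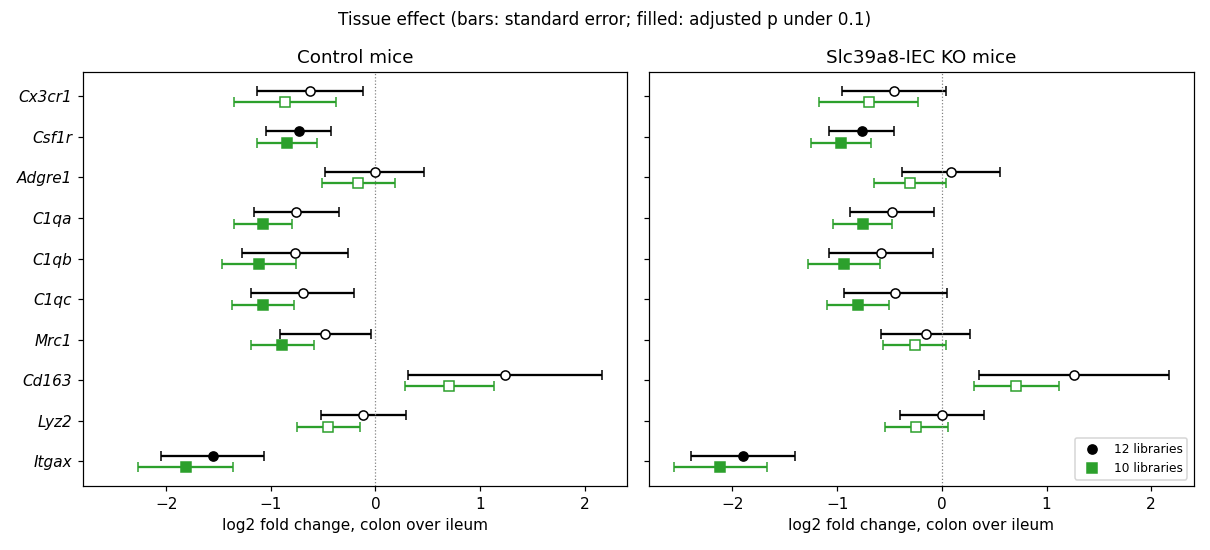
Log2 fold change of colon over ileum for each member in control mice (left) and Slc39a8-IEC KO mice (right), with bars for the standard error and filled symbols for an adjusted p under 0.1. Circles use all 12 libraries and squares the 10 left without the 2 ileal libraries with few muscle transcripts. Filled circles are Itgax and Csf1r, and filled squares add the C1q genes in both genotypes and Mrc1 in control mice.

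The calls of the tissue comparison depended on single libraries. Without the 2 ileal libraries with few muscle transcripts, 6 members were called as lower in colon in control mice (C1qa, C1qb, C1qc, Csf1r, Itgax and Mrc1), with 22% of all genes called as lower. In KO mice 5 were called, the same genes without Mrc1, with 21.7% of all genes lower. C1qa then had a log2 fold change of −1.07 (SE 0.28, adjusted p = 0.0117) in control mice and −0.76 (SE 0.28, adjusted p = 0.0544) in KO mice. Itgax was at −1.81 (adjusted p = 0.00923) and −2.12 (adjusted p = 0.0034), and Csf1r at −0.85 (adjusted p = 0.0412) and −0.97 (adjusted p = 0.0211). In this setting 2 ileal libraries remained per genotype. C1qb and Itgax did not overlap between the 4 remaining ileal and the 6 colonic libraries, a position that 19.4% of all genes held in this direction. Leaving out control replicate 3 of the ileum alone gave 5 called members in control mice. The share of all genes called in that fit is not reported here.

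The Itgax and Csf1r calls were not equally firm. The Itgax call in control mice was lost without colon control replicate 1 (adjusted p = 0.102), colon control replicate 2 (0.109) or ileum control replicate 2 (0.158, log2 fold change −0.99), whereas in KO mice it held under all 21 alternatives, with an adjusted p from 0.000944 to 0.0571. The Csf1r call held under 11 of 21 alternatives in each genotype. Both log2 fold changes stayed negative under each of these settings, scaling by library size alone included, under which the median over all genes shifted by 0.22 in control and 0.27 in KO mice.

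Some other immune genes, those of T cells above all, were also lower in colon, and their part in the values of Itgax was not tested. Over all genes 19.6% in control and 20% in KO mice were lower, and 22% and 21.7% without the 2 ileal libraries with few muscle transcripts. All 5 T cell genes were lower in colon in control mice and 4 of 5 in KO mice (5 of 5 in both without the 2 ileal libraries with few muscle transcripts), for example Cd4, at −2.26 (SE 0.46, adjusted p = 0.00337) and −2.38 (SE 0.45, adjusted p = 0.00216). The summed T cell genes were at 18.7 to 57.6 CPM in ileum and 7.63 to 18.5 CPM in colon. Itgae, the integrin of intraepithelial lymphocytes and of a subset of gut dendritic cells, was lower at −1.81 (adjusted p = 0.0324) and −1.95 (adjusted p = 0.0222). Among 13 further dendritic cell genes 10 were tested. In control mice 2 were lower, close to the share over all genes, and 1 was higher, with 3 lower and 0 higher in KO mice. Without the 2 ileal libraries 3 were lower (Batf3, Itgae and Irf4) and 2 higher (Zbtb46 and Clec10a) in control mice, and 5 were lower (Flt3, Xcr1, Clec9a, Itgae and Irf4) and 1 higher (Clec10a) in KO mice. Irf4 was lower in both genotypes (−1.77, adjusted p = 0.0422, and −1.36, adjusted p = 0.0882) and Flt3 in KO mice (−1.68, adjusted p = 0.0608). Zbtb46 was higher in colon of control mice (1.19, adjusted p = 0.0753). Over 21 alternatives the calls in control mice held in 18 for Itgae, 19 for Irf4 and 15 for Zbtb46. In KO mice they held in 21 for Itgae and 14 for Flt3.

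Among the 16 further macrophage genes tested, 1 was lower and 1 higher in colon in control mice, and 2 were lower and 1 higher in KO mice, beside the 19.6% and 20% of all genes that were lower. These counts depended on the ileal libraries with few muscle transcripts. Without them 7 were lower in control mice (Fcgr1, Fcgr3, Aif1, Tyrobp, Fcer1g, Timd4 and Itgam) and 6 in KO mice (the same genes without Fcgr1), beside 22% and 21.7% of all genes. Tyrobp was then at −1.08 (SE 0.20, adjusted p = 0.00135) in control and −0.87 (SE 0.20, adjusted p = 0.00514) in KO mice. Itgam, which encodes the integrin CD11b, was lower in both genotypes, at −2.75 (SE 0.30, adjusted p = 4.11e-05) and −2.74 (SE 0.29, adjusted p = 4.18e-05), from 13.2 to 22.4 CPM in ileum to 1.76 to 3.28 CPM in colon. Lyve1 was higher in control mice (0.67, adjusted p = 0.0658), a call lost without the 2 ileal libraries (0.56, adjusted p = 0.108), where Pf4 was called instead (0.90, adjusted p = 0.0784). In KO mice Timd4, a receptor for dying cells, was lower (−1.73, adjusted p = 0.0698) and Trem2, a lipid receptor of macrophages, was higher (1.87, adjusted p = 0.0814), both at levels of at most 1.44 CPM. Of 6 transcription factor genes of myeloid cells, Irf8 was lower at −1.06 (adjusted p = 0.029) and −0.93 (adjusted p = 0.0496). Cebpa was higher at 0.44 (adjusted p = 0.0633) and 0.50 (adjusted p = 0.0376). Its level was 46.3 to 104 CPM over the 12 libraries. In the 2 ileal libraries with few muscle transcripts, where most members were low, it was at 62.1 and 63.4 CPM, above the 46.3 to 58.3 CPM of the other ileal libraries. From which cells its reads came was not tested. Of 4 ligand genes tested, Cx3cl1 alone was called, as lower in colon of control mice (−0.53, SE 0.21, adjusted p = 0.0764), and without the 2 ileal libraries Il34 was lower there as well (−1.33, SE 0.50, adjusted p = 0.0613). The calls of Irf8 and Cebpa held without these libraries in both genotypes. Over all 21 alternatives the Cebpa call held in 14 in control and 19 in KO mice, and the Irf8 call in 20 and 17. Itgam held in 21 in both. The calls in control mice held in 14 for Lyve1 and 13 for Cx3cl1, and those in KO mice in 14 for Timd4 and 11 for Trem2.

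Slc39a8-IEC KO was compared with control in each tissue. None of the 10 members was called in ileum, in colon, over both tissues or in the difference of the genotype effect between tissues. In these 4 comparisons edgeR called 0 of 16558 genes (0%) in all, while 252, 385, 641 and 169 genes had an unadjusted p under 0.05. DESeq2 called 2, 0, 4 and 1 genes and limma-voom 1, 0, 1 and 0, and a member was among them in no case. The deleted gene Slc39a8 was itself not called by edgeR, although its levels did not overlap between genotypes in either tissue. Over both tissues its log2 fold change was −1.13 (SE 0.17, adjusted p = 0.382). The paper reports the deleted gene as called with ileum and colon combined. A test that missed the deleted gene can also miss changes in the members. All 10 members overlapped between genotypes in both tissues, where 3.7% of all genes in ileum and 12.8% in colon did not overlap.

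Over both tissues the log2 fold changes of KO over control ran from −0.15 (Lyz2) to 0.15 (Itgax), and the smallest unadjusted p was 0.591. The 95% confidence interval was −0.38 to 0.51 for Csf1r, −0.62 to 0.57 for C1qa and −0.57 to 0.87 for Itgax. It was widest for Cd163, at −1.17 to 1.46. Without the 2 ileal libraries with few muscle transcripts the estimates ran from −0.21 (Mrc1) to 0.18 (Cx3cr1), and again 0 members were called. The intervals, from all 12 libraries with 3 mice per group, include changes of either sign and do not show that the genotypes are alike. What size of change could have been detected was not tested.

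**Figure D3:**
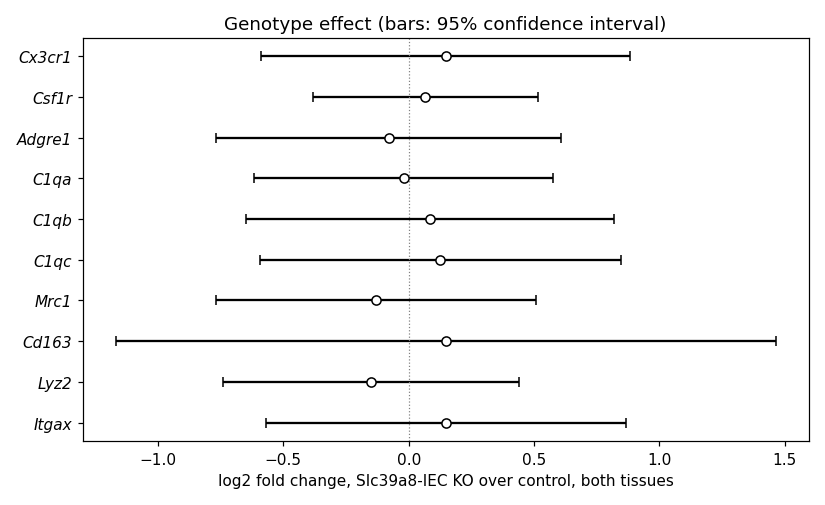
Log2 fold change of Slc39a8-IEC KO over control over both tissues for each member, with bars for the 95% confidence interval (12 libraries). Every interval includes 0, from the narrowest for Csf1r (−0.38 to 0.51) to the widest for Cd163 (−1.17 to 1.46).

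In ileum alone the estimates ran from −0.29 (Mrc1) to 0.31 (Itgax), and in colon from −0.09 (Lyz2) to 0.25 (C1qc). The difference of the genotype effect between tissues ran from −0.35 (Itgax) to 0.32 (Mrc1). Mrc1 in ileum was at 11.7 ± 6.26 CPM in controls and 9.54 ± 1.78 CPM in KO mice, with a 95% confidence interval of the log2 fold change of −1.23 to 0.65. In colon the KO libraries were spread more widely than the controls for each of the 10 members. KO replicate 3 held the highest colonic value of all 10 and KO replicate 1 the lowest of 8, for example 96.5 and 36.1 CPM of Lyz2, against 63.6 to 72.3 CPM in the controls. The shares of all genes with such a spread or such positions were not counted. Whether these counts are particular to the members is therefore unknown. The summed members were at 82.3 to 204 CPM in KO colon and at 123 to 144 CPM in control colon. Of the ligands, Csf1, Il34 and Cx3cl1 had log2 fold changes of −0.08, −0.09 and 0.16 over both tissues and were not called.

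The ileal libraries were also compared with one another, since those with few muscle transcripts came 1 from each genotype. In control replicate 3 and KO replicate 1, 8 of 10 members were lower than in all 4 other ileal libraries, the exceptions being Csf1r and Itgax, and none was higher. Over all genes 27.2% were lower in both libraries. The 2 libraries were picked by their muscle transcripts, and since they are not a group of the study their values are given without a test. Averaged over the 2, the members were at a median of 47.3% of the mean of the other 4, beside 97.1% over all genes. Cd163 was at 6.42%, C1qc at 33.6%, C1qb at 36.5%, C1qa at 44.5% and Lyz2 at 45.9%. Mrc1 and Adgre1 were at 48.7% and 48.8%, Cx3cr1 and Itgax both at 54.7%, and Csf1r at 69.6%. The summed members were at 97.6 CPM (control replicate 3) and 94.9 CPM (KO replicate 1), while the other 4 held 192 to 230 CPM.

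**Figure D4:**
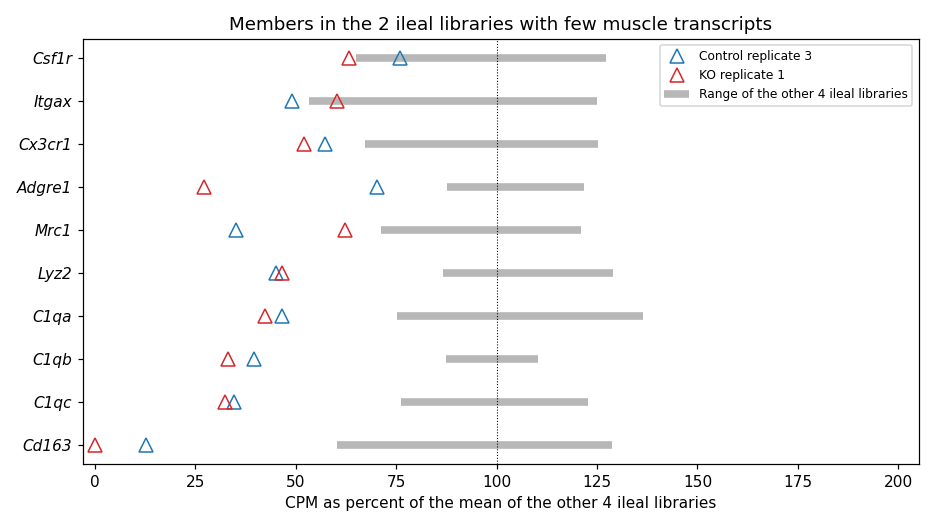
CPM of each member in ileal control replicate 3 and KO replicate 1 (open triangles) as a percentage of the mean of the other 4 ileal libraries, whose range is the grey bar. Both triangles lie below the bar for 8 genes, while a triangle falls within the bar for Csf1r and for Itgax.

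Other genes of the mucosa moved with the members in these 2 libraries, and their part in the result was not tested. Of the 16 further macrophage genes 12 were lower in both, for example Tyrobp (3.40 and 3.64 against 11.04 to 13.8 CPM), and Mertk, a receptor for dying cells, was higher (111 and 126 against 51.9 to 69.2 CPM). Of the ligands Csf1 was lower (0.850 and 1.13 against 5.20 to 7.61 CPM), as were Il34 and Flt3l, whereas Cx3cl1 overlapped. Ccr2, the receptor by which monocytes enter tissue, was at 0.382 and 0.238 CPM against 2.75 to 4.999 CPM. Among tested dendritic cell genes 3 of 10 were lower and 7 overlapped, beside 27.2% of all genes that were lower in both. Smooth muscle genes summed to 169 and 182 CPM against 2294 to 3215 CPM, fibroblast genes to 32.3 and 34.0 against 243 to 484 CPM, and T cell genes to 18.7 and 21.2 against 44.9 to 57.6 CPM. B cell genes were higher, at a sum of 37.4 and 46.8 against 2.33 to 5.16 CPM, and so were Paneth cell genes, at 13614 and 10925 against 4424 to 7037 CPM. Epithelial genes summed to 15578 and 16718 CPM, against 17546 to 20273 CPM.

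The complement genes beside C1q were looked at as well. C3, the central component that the classical pathway cleaves, was at 8.88 and 11.6 CPM in the 2 ileal libraries with few muscle transcripts and at 173 to 633 CPM in the other 4. Over the 9 complement genes tested, 8 were lower in both libraries and Cfb was higher, while 27.2% of all genes were lower in both. Between tissues 2 of the 9 were called, C2 and Cfb, both lower in colon in each genotype. This was close to the 19.6% (control) and 20% (KO) of all genes that were lower. Without the 2 ileal libraries with few muscle transcripts C4b was lower as well in control mice (−1.12, adjusted p = 0.0175) and in KO mice (−0.81, adjusted p = 0.0687), and C3 in KO mice (−1.24, adjusted p = 0.0449), which made 3 and 4 of 9. Of all genes 22% and 21.7% were lower in that setting. The log2 fold changes of C2 were −2.59 (SE 0.30, adjusted p = 7.13e-05) in control and −3.19 (SE 0.31, adjusted p = 1.86e-05) in KO mice. None of the 9 was called between genotypes.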

How the data were processed

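RNA of ileal or colonic mucosa was made into cDNA with oligo-dT and sequenced as paired ends. Per the labels and the paper's methods the authors aligned reads with STAR to mm10. They deposited 1 table of expected counts, not normalized. The paper's reporting summary names unique alignments, removal of duplicates by UMI-tools and counting by FeatureCounts, which gives whole counts and not expected ones. How the deposited values were estimated is therefore unclear, and so is how reads were divided between Lyz1 and Lyz2. Of 53807 lines, 92 spike-in lines (0 counts) were left out. Gene identifiers were matched to GENCODE M21 without their version (Csf1r and Adgre1 had an earlier version). Promoter windows came from RefSeq (GRCm38.p6).

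Expected counts were rounded and tested with edgeR 4.0.16 (R 4.3.3, quasi-likelihood, TMM, filterByExpr, 4 group means over all 12 libraries), which left 16558 genes. The genotype effect over both tissues came instead from a model with genotype and tissue as additive terms. CPM used TMM-scaled library sizes, and log2 CPM a prior count of 2. Scripts were tested on simulated data. Depth was 16749138 to 27903083 expected counts per library, and 0 pairs of libraries were identical. Alternatives were DESeq2 1.42.0, limma-voom 3.58.1, other scalings and filters, an adjusted p under 0.05, a replicate block, only the libraries of a comparison, Lyz1 and Lyz2 summed, and libraries left out. Single-gene permutation tests were not used, since 3 against 3 libraries cannot give a p under 0.1.

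The members and gene lists were chosen with earlier results of these data known. Named genes were all members, Lyz1, the ligands, the called genes of each further list with the largest changes (up to 2 in each direction), smooth muscle genes, and genes among the 5 nearest to the C1q pattern. Some genes that the rule names are not reported here. Genes outside this rule (Tyrobp, Fcer1g, Aif1, Mertk, Spi1, Xcr1, Clec9a, Flt3l, Ccr2, C3, C4b, Pf4, Batf3, Clec10a, Fcgr1 and Fcgr3) were named after their values were seen, and so were the 2 ileal libraries with few muscle transcripts. Whether ileum and colon came from the same mice is not given.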

Additional observations from a re-analysis of the deposited data

How the results depend on the processing

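The 2 members called between tissues became 1 (Itgax) in control mice under limma-voom, RLE scaling, library size only, no filter on low counts and an adjusted p under 0.05, and in KO mice under library size only, no filter, the stricter threshold and a fit to only the libraries of the comparison. They became 6 in control and 5 in KO mice without both ileal libraries with few muscle transcripts. Leaving out 1 library gave 0 to 5 called members in control mice (0 without colon control replicate 1 or 2 or ileum control replicate 2) and 1 to 2 in KO mice. The shares of all genes called in these fits are not reported here. Genotype comparisons called 0 members under every alternative listed. Their count over all genes rose from 0 to 2 (ileum), 4 (both tissues) and 1 (difference between tissues) with DESeq2, to 1 (ileum, both tissues) with limma-voom, to 1 (colon) with only the libraries of the comparison, to 3 (ileum) and 5 (both tissues) without the 2 ileal libraries, and to 0 to 1 (ileum, both tissues) with 1 library left out. With the replicate number as a block, 2 members were called in each genotype between tissues, with 5333 and 5558 genes against 5940 and 6149. For libraries of the same number, deviations from group means were correlated at −0.0798 to 0.251 between ileum and colon within a genotype. Between genotypes within a tissue the correlations ran from −0.694 to 0.404. Libraries of different numbers were not compared, so whether a shared number means a shared mouse cannot be told from these values.

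Signs changed for the following values, none of them called with all libraries. Between tissues in control mice, Adgre1 moved to 0.014 under limma-voom and 0.23 by library size, and Lyz2 to 0.017 and 0.16. In KO mice, Adgre1 moved to −0.30 without the 2 ileal libraries, Mrc1 to 0.14 by library size, and Lyz2 to −0.050 under limma-voom, −0.00351 with the block, −0.24 without the 2 libraries and −5.60 when summed with Lyz1. Over both tissues the genotype estimate moved to 0.042 for Adgre1 without the 2 libraries and to −0.027 for C1qb with the block. It moved for Mrc1 to 0.0043 under limma-voom, and for C1qa to 0.0054 under limma-voom, 0.070 by library size, 0.00020 without a filter and 0.0051 without the 2 libraries. The lowest member in colon moved to 0.024 by library size. With 1 library left out, tissue estimates ran from −0.16 to 0.10 (Adgre1) and −0.45 to 0.27 (Lyz2) in control mice, and from −0.37 to 0.54 (Adgre1), −0.42 to 0.27 (Lyz2) and −0.53 to 0.072 (Mrc1) in KO mice. Genotype estimates over both tissues ran from −0.29 to 0.10 (Adgre1), −0.16 to 0.22 (C1qa), −0.18 to 0.26 (C1qb), −0.055 to 0.36 (C1qc), −0.13 to 0.49 (Cd163), −0.070 to 0.20 (Csf1r), −0.064 to 0.35 (Cx3cr1), −0.078 to 0.38 (Itgax), −0.34 to 0.025 (Lyz2) and −0.31 to 0.0016 (Mrc1). In colon the lowest member ran from −0.65 to 0.085 and the highest from −0.12 to 0.59. The causes were not tested. Depth limits Cd163, Cx3cr1 and Itgax most, with 0 to 94, 16 to 73 and 17 to 187 counts per library.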
